A study of Mus musculus with 15 samples.

Results

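The genes described here were 34 genes of G2, mitosis and cytokinesis, taken by their symbols from the 53762 genes of the counts table. All 34 symbols were found, and all 34 were among the 16550 genes that passed the filter on low counts. They were followed across 15 RNA sequencing libraries of mature thymocytes in 5 groups of 3. The choice of genes used no measured value of these libraries, but it was made with earlier results of these data known.

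The strain was C57BL/6, and the cells developed in irradiated hosts that had received wild-type (WT) marrow mixed with mutant marrow. All sorts were for CD44lo TCRbhi CD24lo CD69lo thymocytes, so the groups differed in CD4, CD8, donor and host. WT CD4 SP cells (single positive for CD4) were CD45.1+CD45.2+ competitor cells from B2m-/- hosts, which lack a chain needed by MHC class I. WT CD8 SP cells were CD45.1+CD45.2+ competitor cells from I-Ab-/- hosts, which lack an MHC class II chain. The other 3 groups were CD45.2+ cells from B2m-/- hosts, and all 3 carried Thpok fl/fl, Runx3 fl/dYFP and Cd4-Cre, a recombinase gene driven by Cd4 regulatory sequence that acts in developing T cells. Donors without Thpok-RKF gave the Thpok-RKF- CD8 SP and the Thpok-RKF- CD4+CD8+ groups, and donors with Thpok-RKF gave the Thpok-RKF+ CD4+CD8+ group. The labels do not explain the name Thpok-RKF, nor do they say whether replicates were separate animals or pools, and the p-values therefore speak only of the variation among the libraries at hand. The WT CD8 SP group was the only one from I-Ab-/- hosts, and in its comparisons host, lineage and, against mutant cells, genotype cannot be told apart.

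A cell enters mitosis when the kinase CDK1, bound to cyclins A and B, is activated, and it leaves mitosis when the anaphase-promoting complex, an E3 ubiquitin ligase, marks the cyclins and other targets for destruction. Between these steps motors build the spindle, kinetochores attach chromosomes to it, the spindle checkpoint delays anaphase until attachment is complete, and the chromosomal passenger complex and midzone proteins direct the separation of the daughter cells. Transcripts of these genes are produced mainly in G2 and mitosis, and in resting cells the DREAM complex keeps many of the promoters repressed through a site called the cell cycle homology region (CHR). In the thymus most division takes place before the mature single-positive stage, and a smaller round of division is known in mature cells before they leave.

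Because many promoters of such genes are regulated in this way, those of the members were searched for CHR matches. Shown are the stretches upstream of the start site in which a CHR match and a CCAAT match lie close together. CCAAT is the site bound by NF-Y. Windows of 300 bases, 250 before to 50 after the annotated start, were taken by symbol from RefSeq promoters of build GRCm38.p6, and 30 of the 34 members had one. Capitals mark TTTGAA, the CHR, and CCAAT, on either strand (TTCAAA and ATTGG on the other), and each sequence is the gene's own strand, 5′ to 3′, ending before the start site.
Cdk1, chr10:69352913-69352981, minus strand: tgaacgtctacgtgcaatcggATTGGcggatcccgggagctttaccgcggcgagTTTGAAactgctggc
Mki67, chr7:135716452-135716531, minus strand: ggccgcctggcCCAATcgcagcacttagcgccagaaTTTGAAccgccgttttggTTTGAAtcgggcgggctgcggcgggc
Top2a, chr11:99024190-99024266, minus strand: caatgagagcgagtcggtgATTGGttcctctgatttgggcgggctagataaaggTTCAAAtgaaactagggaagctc
Kif11, chr19:37376309-37376381, plus strand: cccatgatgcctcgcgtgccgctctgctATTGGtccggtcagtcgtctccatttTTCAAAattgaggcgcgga
Cdc20, chr4:118437344-118437415, minus strand: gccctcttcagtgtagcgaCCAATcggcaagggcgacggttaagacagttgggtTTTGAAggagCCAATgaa
Ube2c, chr2:164769846-164769925, plus strand: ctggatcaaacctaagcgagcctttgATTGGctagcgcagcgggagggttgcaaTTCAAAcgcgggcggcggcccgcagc
Prc1, chr7:80294392-80294471, plus strand: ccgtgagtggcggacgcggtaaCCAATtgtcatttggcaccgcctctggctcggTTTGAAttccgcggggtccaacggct
Ect2, chr3:27153967-27154046, minus strand: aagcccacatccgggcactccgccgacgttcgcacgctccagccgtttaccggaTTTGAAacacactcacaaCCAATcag
In 7 of these 8 stretches a CCAAT match lay before the CHR match nearest the start site, with 21 to 38 bases between them. Stretches were printed only where a CCAAT match lay near that CHR match, and the search reached farther before it than after it. Their order and spacing therefore follow in part from the choice and are no result about these promoters. The 38 bases are those of Mki67, where they span another CHR match, with its first base at -116. In the Ect2 stretch the CCAAT match lay after the CHR match. A match cut by the start of a stretch was left in lower case. These were a CHR match with its first base at -71 for Cdk1 and a CCAAT match at -78 for Top2a. Over whole windows, TTTGAA on either strand was present for 23 of 30 members (76.7%), against 17.9% of the 32851 windows of all genes. CCAAT was present for 22 of 30 (73.3%), against 37.4% of all windows, and both for 19 of 30 (63.3%), against 6.95%. These shares count members by gene, if any window of the gene had a match, and all genes by window. Counted by window, the members had TTTGAA in 25 of 32 (78.1%), CCAAT in 24 (75%) and both in 21 (65.6%). Kif23 and Racgap1, which are set apart by their levels below, had a CHR match just after the start, with its first base at position 3 for Kif23 and position 6 for Racgap1. This did not set them apart, since other members had such a match too, as at position 3 for Cenpf, 5 for Ccnb2 and 8 for Ttk. Ccna2, Tpx2, Aurkb and Kif20a had no entry in the table. A match is a description of letters and was not tested as a site.

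Libraries held 37311823 to 48607260 counts in genes. Levels are given as CPM (counts relative to library size), with library sizes multiplied by TMM, a factor that balances composition between libraries, and levels of different genes are not set against each other. Zbtb7b, the gene of Thpok, lay at 27.4 to 79.1 CPM in WT CD4 SP, at 0.0932 to 0.376 in WT CD8 SP, at 1.67 to 2.95 in the Thpok-RKF- groups and at 768 to 823 in Thpok-RKF+, where the labels do not say whether reads of Thpok-RKF count as Zbtb7b. Runx3 lay at 23.1 to 32.4 CPM in WT CD4 SP and at 194 to 361 in the other groups, and counts over whole genes do not check the deletion of an exon. The T cell gene Cd3e lay at 572 to 841 CPM in all libraries. Cd4 lay at 822 to 969 CPM in WT CD4 SP, at 0.803 to 3.85 in WT CD8 SP, at 17.4 to 41.5 in Thpok-RKF- CD8 SP, at 214 to 397 in Thpok-RKF- CD4+CD8+ and at 1035 to 1146 in Thpok-RKF+ CD4+CD8+, while Ms4a1, which marks B cells, was at 0 in all of them. The summed level of 8 B cell markers, nearly all of it Ighm, was 843 to 1190 CPM in WT CD8 SP, 543 to 809 in WT CD4 SP, 724 to 993 in Thpok-RKF- CD8 SP, 446 to 698 in Thpok-RKF- CD4+CD8+, and 362 to 760 in those with Thpok-RKF. The summed level of 12 immature thymocyte markers was lowest in WT CD4 SP (491 to 670 CPM) and highest in Thpok-RKF- CD8 SP (1181 to 1328), and WT CD8 SP lay at 825 to 929. Summed myeloid markers reached 31.2 CPM in WT CD4 SP replicate 1 and 41.9 in Thpok-RKF+ CD4+CD8+ replicate 1, and at most 7.09 elsewhere. The part of these cell types in the results was not tested.

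The 34 members were highest in WT CD8 SP cells, intermediate in Thpok-RKF- CD4+CD8+ cells and lowest in Thpok-RKF- CD8 SP cells. By group means WT CD8 SP came first for 33 of the 34, Thpok-RKF- CD4+CD8+ came second for 33, and Thpok-RKF- CD8 SP came last for 32. WT CD4 SP and Thpok-RKF+ CD4+CD8+ lay between, with Thpok-RKF+ above WT CD4 SP for 16 of the members that followed this order and below it for 15. Of the 34 members, edgeR called Kif23 and Racgap1 between these neighbours (the values are given with that comparison), and the libraries of Ndc80 and Kif20a did not overlap either but were not called. Of all genes, 4.36% were called higher in Thpok-RKF+ than in WT CD4 SP and 2.91% lower. The share of all genes whose libraries did not overlap is not given here, so this is a description only. Summed over the 34 genes, the level was 1504, 2235 and 2381 CPM in WT CD8 SP replicates 1 to 3, and 1055, 1009 and 992 CPM in Thpok-RKF- CD4+CD8+. It was 527, 552 and 520 CPM in Thpok-RKF+ CD4+CD8+ and 366, 518 and 587 CPM in WT CD4 SP, which overlapped. It was 340, 277 and 313 CPM in Thpok-RKF- CD8 SP, below every other library, and without Kif23 and Racgap1, 2 genes picked after their values were seen, 129, 111 and 123 CPM. In sorted bulk cells, fewer dividing cells and less mitotic RNA per dividing cell cannot be told apart.

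**Figure D1:**
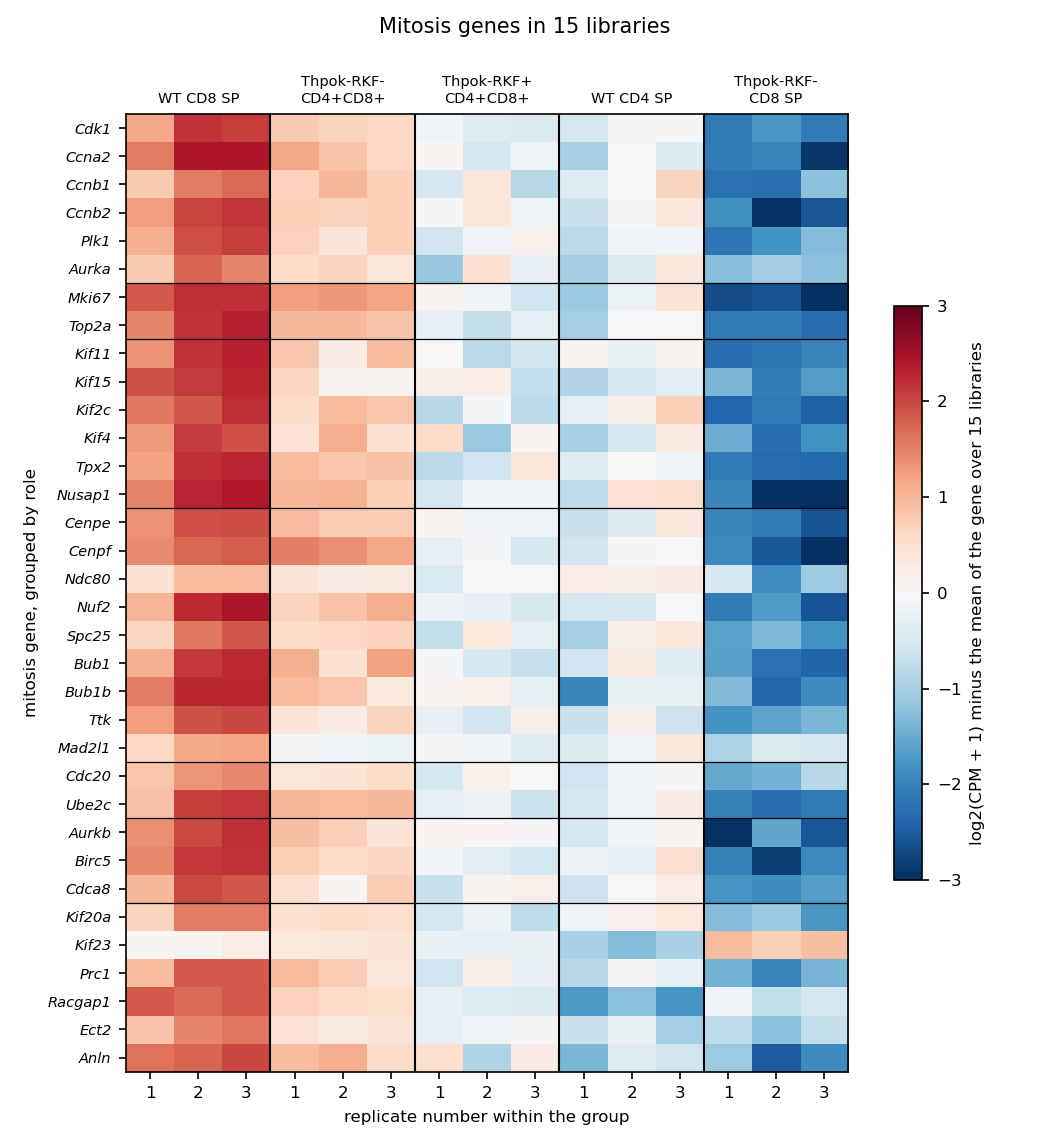
Each row is 1 of the 34 mitosis genes, grouped by role with lines between roles, and each column 1 of 15 libraries; the colour is log2(CPM + 1) minus the gene's mean over the 15 libraries. The WT CD8 SP columns are red and the Thpok-RKF- CD8 SP columns blue in nearly every row. The row of Kif23 differs, with Thpok-RKF- CD8 SP highest and WT CD4 SP lowest.

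Replicates of the WT groups did not sit at one level. WT CD8 SP replicate 1 was the lowest of its group for 33 of the 34 members, and WT CD4 SP replicate 1 was the lowest of its group for 28. In the 3 mutant groups the library numbered 1 was the lowest for 8 to 11 members. Within a group the highest library exceeded the lowest by a median over members of 1.79-fold in WT CD8 SP, 1.83-fold in WT CD4 SP, 1.55-fold in Thpok-RKF+ CD4+CD8+ and 1.25-fold in Thpok-RKF- CD4+CD8+. It was 2.09-fold in Thpok-RKF- CD8 SP over the 33 members with a count in every library. Counts were lowest there: Anln had 0 counts in replicate 2 and Cenpf had 3 in replicate 3, while the other 32 members had at least 10 in each of these libraries.

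Among the kinases and cyclins that drive entry into mitosis, Cdk1, the mitotic kinase itself, lay at 22.5, 47.6 and 44.6 CPM in WT CD8 SP and at 17.6, 16.0 and 15.5 CPM in Thpok-RKF- CD4+CD8+. It lay at 8.78, 7.17 and 6.94 CPM in Thpok-RKF+ CD4+CD8+, at 6.46, 10.01 and 9.44 in WT CD4 SP, and at 1.46, 2.20 and 1.52 in Thpok-RKF- CD8 SP. Only Thpok-RKF+ and WT CD4 SP libraries overlapped, and the highest group mean was 22.2-fold the lowest. Ccna2 encodes cyclin A2, which partners CDK1 and CDK2, and had means of 63.5, 25.4, 11.5, 9.65 and 1.90 CPM in WT CD8 SP, CD4+CD8+ without and then with Thpok-RKF, WT CD4 SP and Thpok-RKF- CD8 SP. Ccnb1, cyclin B1, lay at 23.5, 41.1 and 45.6 CPM in WT CD8 SP against 22.1, 27.6 and 22.6 in Thpok-RKF- CD4+CD8+, where the libraries overlapped, and at 2.04, 1.99 and 5.13 in Thpok-RKF- CD8 SP. Ccnb2, Plk1, a kinase with roles from entry to exit, and Aurka, the kinase of spindle poles, followed the same order at the top and the bottom. Aurka had the narrowest range of the 6, with a highest mean 7.18-fold its lowest. The counts table also lists pseudogene copies of Ccnb1, Ccnb2 and Kif4, and RefSeq synonyms point to copies of Kif2c and Aurkb. The rows of these copies held at most 76 counts in a library, for the Ccnb2 copy. Ccnb2 itself held 60 to 3344 counts across libraries, so its lowest count was below that. How reads were divided between gene and copy is uncertain.

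Mki67, the marker of cycling cells known as Ki-67, lay at 92.5, 119 and 118 CPM in WT CD8 SP and at 60.3, 63.3 and 57.6 in Thpok-RKF- CD4+CD8+. It lay at 26.9, 23.2 and 16.2 CPM in Thpok-RKF+ CD4+CD8+, at 10.98, 21.6 and 33.4 in WT CD4 SP, and at 3.12, 3.33 and 1.72 in Thpok-RKF- CD8 SP. The highest and lowest group means were 40.3-fold apart, and again only the Thpok-RKF+ and WT CD4 SP libraries overlapped. Top2a, the topoisomerase that untangles sister chromatids, lay at 150.1, 242 and 269 CPM in WT CD8 SP, at 105, 107 and 96.9 in Thpok-RKF- CD4+CD8+ and at 44.2, 31.9 and 43.6 in Thpok-RKF+ CD4+CD8+. It lay at 25.9, 53.2 and 54.2 CPM in WT CD4 SP and at 11.4, 12.01 and 10.2 in Thpok-RKF- CD8 SP. Replicate 1 was the low library of both WT groups for Top2a.

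**Figure D2:**
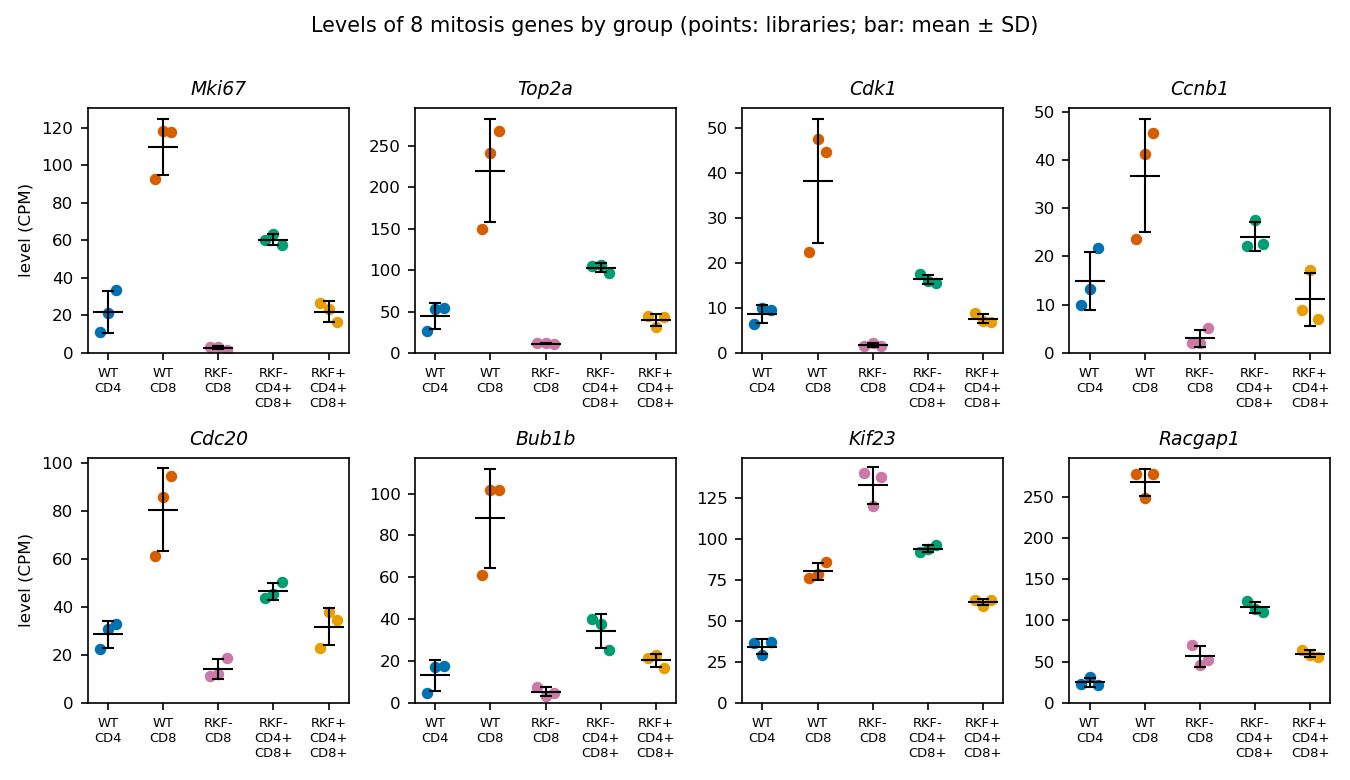
Level in CPM (vertical axes from 0) of 8 mitosis genes in the 5 groups; coloured points are the 3 libraries of a group, the long bar is their mean and the whiskers ± 1 SD. For 6 genes WT CD8 SP is highest and Thpok-RKF- CD8 SP lowest; Kif23 is highest in Thpok-RKF- CD8 SP and Racgap1 lowest in WT CD4 SP.

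The 2 widest ranges were those of spindle genes. Nusap1, which bundles spindle microtubules, had a highest group mean 45.5-fold its lowest, and Kif2c, a motor that shortens microtubules at kinetochores, 44.2-fold. Such ranges rest on low levels in Thpok-RKF- CD8 SP, where Nusap1 lay at 3.01, 0.497 and 0.869 CPM, so its place in the ranking is uncertain. Kif2c lay at 23.8, 29.1 and 37.7 CPM in WT CD8 SP, at 11.1, 15.1 and 13.8 in Thpok-RKF- CD4+CD8+ and at 3.68, 6.997 and 3.81 in Thpok-RKF+ CD4+CD8+. It lay at 5.89, 8.38 and 12.7 CPM in WT CD4 SP and at 0.606, 0.907 and 0.535 in Thpok-RKF- CD8 SP, where all 3 libraries were below every library of the other groups. Kif11, the motor that pushes spindle poles apart, had means of 95.7, 37.8, 17.1, 22.9 and 4.41 CPM in WT CD8 SP, CD4+CD8+ without and then with Thpok-RKF, WT CD4 SP and Thpok-RKF- CD8 SP. Kif15, a motor that works beside it, Kif4, which acts on chromosome arms, and Tpx2, which activates Aurora A, ranged 24.8-fold, 21.5-fold and 25.99-fold between group means.

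The kinetochore and checkpoint genes were uneven in range. Cenpf, Nuf2 and Bub1 ranged 36.8-fold, 36.6-fold and 33.96-fold between group means; they encode a kinetochore protein, a subunit of the NDC80 complex that holds microtubules, and a checkpoint kinase. Cenpe, a kinetochore motor, and Ttk, the kinase that starts checkpoint signalling, ranged 27.0-fold and 28.6-fold. Ndc80, the namesake of the complex that Nuf2 and Spc25 belong to, ranged only 3.80-fold. It lay at 32.03, 44.2 and 44.9 CPM in WT CD8 SP, at 26.9, 25.9 and 27.2 in WT CD4 SP and at 16.0, 5.62 and 10.3 in Thpok-RKF- CD8 SP, so WT CD8 SP and WT CD4 SP lay close but did not overlap. Mad2l1, the checkpoint protein MAD2, had the narrowest range of the 34, at 3.17-fold. Its libraries lay at 34.98, 49.8 and 51.6 CPM in WT CD8 SP, at 16.4, 20.05 and 28.6 in WT CD4 SP, at 11.2, 16.3 and 15.4 in Thpok-RKF- CD8 SP, at 21.5, 20.5 and 19.4 in Thpok-RKF- CD4+CD8+ and at 21.4, 20.5 and 16.7 in Thpok-RKF+ CD4+CD8+. WT CD4 SP and both CD4+CD8+ groups overlapped for Mad2l1, and Thpok-RKF- CD8 SP lay just below them. Bub1b, the checkpoint protein BUBR1, ranged 16.9-fold.

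Cdc20, the activator that carries targets to the anaphase-promoting complex, lay at 61.1, 85.9 and 94.2 CPM in WT CD8 SP, at 43.8, 45.1 and 50.3 in Thpok-RKF- CD4+CD8+ and at 10.98, 11.9 and 18.7 in Thpok-RKF- CD8 SP. Ube2c, the enzyme that brings ubiquitin to that complex, lay at 20.9, 48.9 and 51.4 CPM in WT CD8 SP and at 22.9, 21.9 and 22.5 in Thpok-RKF- CD4+CD8+, and replicate 1 of WT CD8 SP lay at the level of the mutant cells. Ube2c lay at 1.93, 1.47 and 1.76 CPM in Thpok-RKF- CD8 SP. Of the chromosomal passenger complex, Aurkb, its kinase, Birc5, the subunit survivin, and Cdca8, the subunit borealin, ranged 28.2-fold, 23.1-fold and 12.8-fold between group means, with WT CD8 SP highest and Thpok-RKF- CD8 SP lowest for each.

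Besides Mad2l1, the exceptions to the order were both cytokinesis genes. Kif23 and Racgap1 encode the 2 partners of centralspindlin, the complex that bundles the midzone and recruits the factors of furrow formation. Kif23 lay at 140.4, 120.1 and 138 CPM in Thpok-RKF- CD8 SP, at 92.3, 93.6 and 96.5 in Thpok-RKF- CD4+CD8+ and at 76.1, 78.8 and 86.1 in WT CD8 SP. It lay at 62.7, 59.3 and 62.9 CPM in Thpok-RKF+ CD4+CD8+ and at 36.7, 29.2 and 37.1 in WT CD4 SP. No pair of groups overlapped for Kif23, and its highest group was the lowest for 32 of the other members. Racgap1 lay at 278, 249 and 277 CPM in WT CD8 SP, at 123, 114 and 111 in Thpok-RKF- CD4+CD8+ and at 64.5, 57.8 and 56.1 in Thpok-RKF+ CD4+CD8+. It lay at 70.8, 46.0 and 52.5 CPM in Thpok-RKF- CD8 SP and at 22.2, 31.4 and 21.7 in WT CD4 SP, the lowest group, and only Thpok-RKF+ CD4+CD8+ and Thpok-RKF- CD8 SP overlapped. Ect2, the activator of RhoA that centralspindlin recruits, ranged 5.29-fold, and Prc1, the bundler of midzone microtubules, Kif20a, a midzone motor, and Anln, which binds the furrow, ranged 11.3-fold, 7.22-fold and 25.6-fold, each with WT CD8 SP highest.

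The comparison of WT CD4 SP with WT CD8 SP asks how the genes differ between the 2 mature lineages of WT donors. Of the 34 members, 33 were lower in WT CD4 SP and none was higher (edgeR quasi-likelihood F test, adjusted by Benjamini and Hochberg over all genes, threshold 0.05). Of all 16550 genes, 10.3% were called lower and 7.72% higher. The median log2 fold change was -2.07 over members and -0.03 over all genes. Racgap1 fell by 3.42 on the log2 scale (SE 0.18, edgeR adjusted p = 1.61e-08) and Kif15 by 2.96 (SE 0.37, adjusted p = 8.17e-05). Top2a fell by 2.31 (SE 0.26, adjusted p = 3.22e-05), Mki67 by 2.32 (SE 0.33, adjusted p = 0.00022) and Kif23 by 1.23 (SE 0.11, adjusted p = 4.74e-06). Ndc80 was the member not called, at -0.60 (SE 0.27, adjusted p = 0.152). The B cell list moved with this difference: of its 4 tested genes 2 were lower in WT CD4 SP and none higher. Of the regulatory T cell list, 5 of 6 genes were higher in WT CD4 SP, with summed levels of 312 to 405 CPM against 138 to 161.

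**Figure D3:**
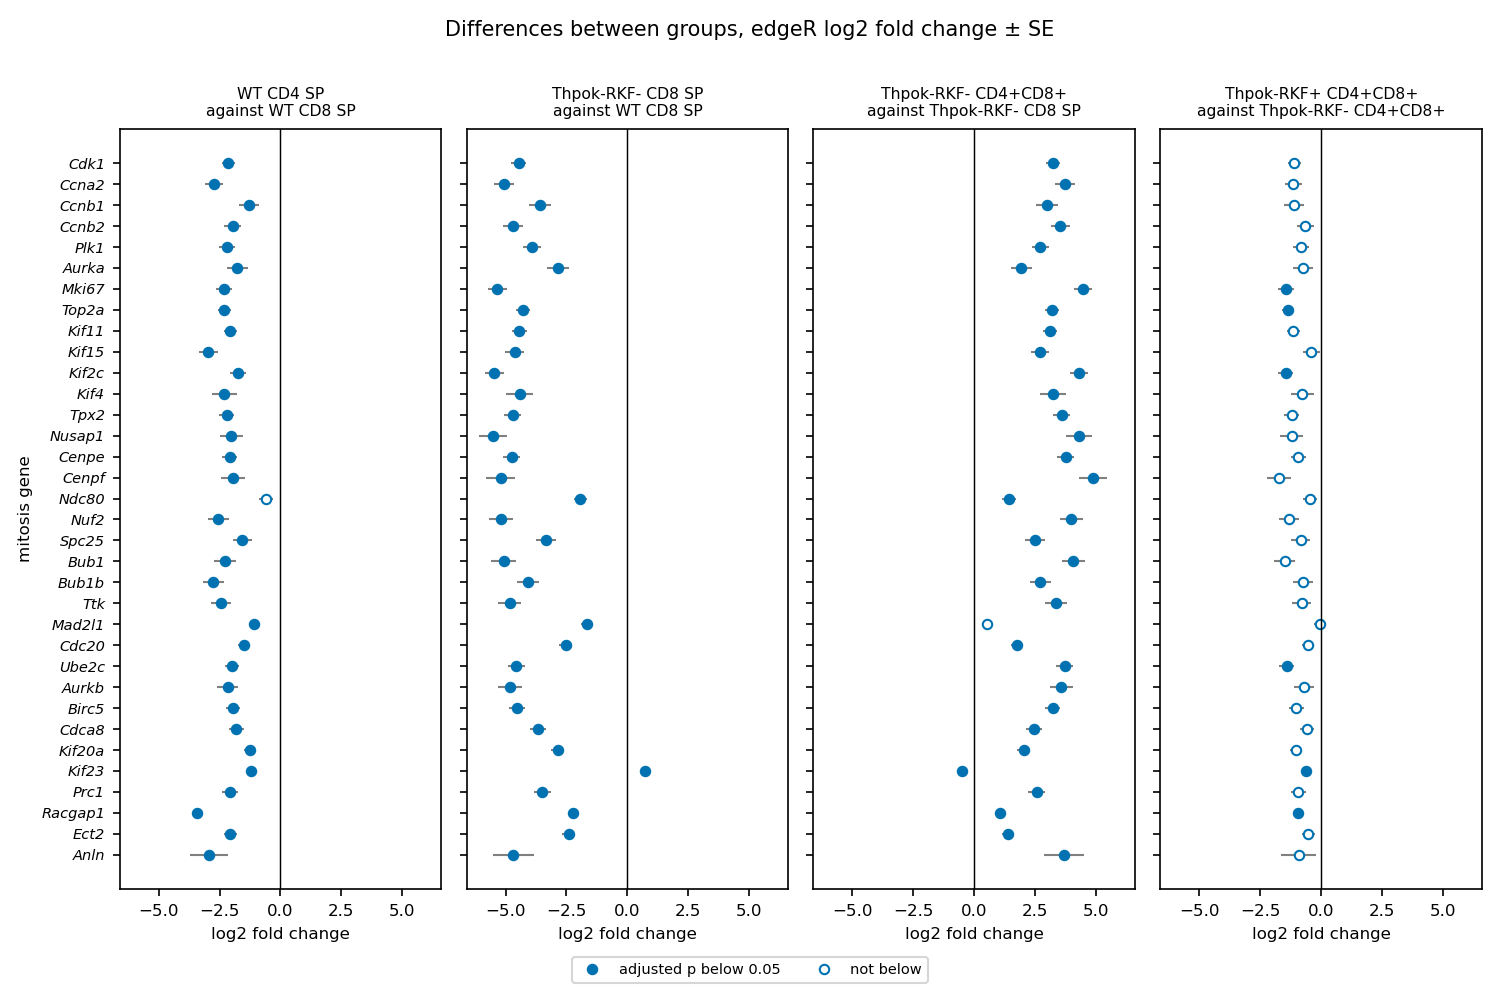
Each panel gives a comparison and each row a mitosis gene; points are edgeR log2 fold changes of the first group over the second with their SE as bars, filled where the adjusted p was below 0.05. Points lie left of 0 in both panels against WT CD8 SP, right of 0 between the Thpok-RKF- groups, and left of 0 but mostly open between the CD4+CD8+ groups, and Kif23 lies across the line from the rest in both panels that hold the mutant CD8 SP cells.

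Thpok-RKF- CD8 SP cells were set against both WT groups to see how far the mutant CD8 SP cells resembled either lineage. Against WT CD8 SP, 33 members were lower and 1, Kif23, was higher, so all 34 were called, where 10.6% of all genes were lower and 7.77% higher. The median log2 fold change was -4.45 over members and 1.67e-05 over all genes. Mki67 fell by 5.33 on the log2 scale (SE 0.39, edgeR adjusted p = 4.26e-07), Kif2c by 5.46 (SE 0.39, adjusted p = 3.66e-07), Top2a by 4.30 (SE 0.29, adjusted p = 2.56e-07) and Cdk1 by 4.47 (SE 0.31, adjusted p = 3.14e-07). Kif23 was higher by 0.73 (SE 0.11, adjusted p = 0.000359). Racgap1, at 2.25 lower (fell by 2.25, SE 0.17, adjusted p = 6.11e-07), moved less than most of the list.

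Against WT CD4 SP, which came from the same kind of host, 28 members were lower and 2, Kif23 and Racgap1, were higher in Thpok-RKF- CD8 SP, where 8.75% of all genes were lower and 8.91% higher. The median was -2.21 over members and -0.00411 over all genes. Kif2c fell by 3.71 on the log2 scale (SE 0.36, edgeR adjusted p = 8.7e-06), Mki67 by 3.01 (SE 0.35, adjusted p = 4.47e-05) and Top2a by 1.99 (SE 0.26, adjusted p = 0.000135). Kif23 was higher by 1.95 (SE 0.12, adjusted p = 4.86e-08) and Racgap1 by 1.17 (SE 0.17, adjusted p = 0.000241). By role, all 6 spindle genes and both proliferation markers were lower, 8 of 9 kinetochore and checkpoint genes were lower, and of the 6 cytokinesis genes 2 were lower and 2 higher. Summed immature thymocyte markers differed in the opposite direction to the mitosis genes here, and 3 of 12 were higher and 1 lower in Thpok-RKF- CD8 SP.

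The Thpok-RKF- CD4+CD8+ and Thpok-RKF- CD8 SP groups had donors of 1 genotype and differed in the gate alone, by the labels. Between them 403 genes differed (2.44% of all genes), a number that was 781 with DESeq2, 231 and 216 without Thpok-RKF- CD8 SP replicate 2 and 3, and 261, 257 and 263 without Thpok-RKF- CD4+CD8+ replicate 1, 2 and 3. In the CD4+CD8+ cells 32 of the 34 members were higher, where 1.72% of all genes were. The median log2 fold change was 3.20 over members and 0 over all genes. Mki67 was higher by 4.47 on the log2 scale (SE 0.37, edgeR adjusted p = 2.83e-05), Kif2c by 4.28 (SE 0.37, adjusted p = 3.12e-05), Cenpe by 3.75 (SE 0.34, adjusted p = 3.12e-05), Ube2c by 3.70 (SE 0.33, adjusted p = 3.12e-05), Cdk1 by 3.24 (SE 0.29, adjusted p = 3.12e-05) and Top2a by 3.20 (SE 0.28, adjusted p = 3.12e-05). Racgap1 rose less, by 1.04 (SE 0.17, adjusted p = 0.00258), and Mad2l1 was at 0.51 (SE 0.22, adjusted p = 0.379) and was not called. Kif23 fell by 0.50 (SE 0.11, adjusted p = 0.0291), where 0.719% of all genes were lower. That call was lost when any library of the 2 groups but Thpok-RKF- CD8 SP replicate 2 was left out, with adjusted p up to 0.147, although the libraries of the 2 groups did not overlap. The call of Ndc80, at 1.43 (SE 0.28, adjusted p = 0.0113), was lost without Thpok-RKF- CD8 SP replicate 3 (adjusted p = 0.0627).

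Thpok-RKF+ and Thpok-RKF- CD4+CD8+ cells shared the gate, the host and the conditional alleles, and their comparison asks what carrying Thpok-RKF changes. All 34 members had lower means with Thpok-RKF, and for 29 of them the libraries did not overlap, where that held for 8.79% of all genes. The test called 6 members lower, where it called 0.375% of all genes lower and 0.586% higher: Racgap1, Kif23, Top2a, Ube2c, Kif2c and Mki67. Racgap1 fell by 0.96 on the log2 scale (SE 0.16, edgeR adjusted p = 0.0123), Kif23 by 0.61 (SE 0.11, adjusted p = 0.018) and Top2a by 1.37 (SE 0.26, adjusted p = 0.019). Ube2c fell by 1.42 (SE 0.30, adjusted p = 0.0377), Kif2c by 1.46 (SE 0.32, adjusted p = 0.0448) and Mki67 by 1.45 (SE 0.32, adjusted p = 0.0492), the last of these at the threshold. The median was -0.94 over members and 0.00618 over all genes, and Mad2l1, at -0.07 (SE 0.22, adjusted p = 0.931), lay nearest to 0. The count of 6 depended on single libraries: it was 2, 0 and 1 without Thpok-RKF- CD4+CD8+ replicate 1, 2 and 3, and 11, 1 and 1 without Thpok-RKF+ CD4+CD8+ replicate 1, 2 and 3. None of the 6 genes kept its call in all of these fits. Calls over all genes moved too: 62 genes were lower with all libraries, 728 without Thpok-RKF+ replicate 1, and 21 to 32 without any other library of the 2 groups. The median over members stayed between -0.99 and -0.90 in these fits. The count of members was 17 without the low-count filter, where 225 of all genes were lower, and 16 with the DESeq2 Wald test, where 317 were. Thpok-RKF+ replicate 1 held the highest share of reads assigned to no gene feature (11.2%) of the 15 libraries and the highest myeloid markers, and their part in the count was not tested.

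Set against WT CD4 SP, the 2 CD4+CD8+ groups gave different counts. In Thpok-RKF- CD4+CD8+ cells 15 members were higher and none lower, where 9.15% of all genes were higher and 8.42% lower, with a median of 1.02 over members. Racgap1 was higher by 2.21 on the log2 scale (SE 0.17, edgeR adjusted p = 1.06e-06), Kif23 by 1.46 (SE 0.12, adjusted p = 1.26e-06), Mki67 by 1.46 (SE 0.32, adjusted p = 0.00802) and Top2a by 1.21 (SE 0.26, adjusted p = 0.00615). The count of 15 was 5 and 6 without WT CD4 SP replicate 1 and 3, and 6, 7 and 9 without Thpok-RKF- CD4+CD8+ replicate 1, 2 and 3. In Thpok-RKF+ CD4+CD8+ cells 2 members were higher and none lower, where 4.36% of all genes were higher and 2.91% lower, with a median of 0.02. These were Racgap1, at 1.24 (SE 0.17, adjusted p = 0.000238), and Kif23, at 0.84 (SE 0.11, adjusted p = 0.000245), while Mki67 was at 0.01 (SE 0.32, adjusted p = 0.997) and Top2a at -0.16 (SE 0.25, adjusted p = 0.805). The 2 comparisons share the WT CD4 SP libraries, and the direct test between the CD4+CD8+ groups is the one above.

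Against WT CD8 SP both CD4+CD8+ groups were lower. In Thpok-RKF+ CD4+CD8+ cells 33 members were lower and none higher, where 6.11% of all genes were lower and 4.97% higher, with a median of -2.04. With 1 library left out the count was 26 to 32. Kif23, at -0.38 on the log2 scale (edgeR adjusted p = 0.0424), lost its call in each of these fits. Ndc80, at -0.96 (adjusted p = 0.0351), kept it in 1 of 6. In Thpok-RKF- CD4+CD8+ cells 19 were lower and none higher, where 7.04% of all genes were lower and 5.11% higher, with a median of -1.13. Top2a fell by 1.10 on the log2 scale in the latter (SE 0.25, edgeR adjusted p = 0.0107), Kif15 by 1.93 (SE 0.36, adjusted p = 0.00242) and Racgap1 by 1.21 (SE 0.17, adjusted p = 0.00024). Mki67, at -0.86 (SE 0.32, adjusted p = 0.096), and Kif23, at 0.23 (SE 0.11, adjusted p = 0.225), were not called. The Mki67 libraries of the 2 groups did not overlap, and it was called without the low-count filter (adjusted p = 0.0147), with DESeq2 (adjusted p = 0.0466) and with only the compared groups in the edgeR fit (adjusted p = 0.00257). The call of Top2a was lost without WT CD8 SP replicate 2 or 3 (edgeR adjusted p up to 0.0658). The count of 19 was 6 and 6 without WT CD8 SP replicate 2 and 3, and 9, 7 and 8 without Thpok-RKF- CD4+CD8+ replicate 1, 2 and 3. Thpok-RKF+ CD4+CD8+ cells were also set against Thpok-RKF- CD8 SP cells, from donors that differ in Thpok-RKF and cells that differ in the gate: 27 members were higher, where 3.4% of all genes were, and 1, Kif23, was lower, where 2.11% were. Kif23 fell by 1.11 (SE 0.11, adjusted p = 4.52e-05) and Racgap1 was at 0.08 (SE 0.16, adjusted p = 0.874).

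Genes of S phase, which copy the DNA before mitosis, did not keep step with the mitosis genes in all groups. The summed level of 26 S phase genes was 3128 to 4567 CPM in WT CD8 SP, 1605 to 1666 in Thpok-RKF- CD4+CD8+, 1471 to 1863 in Thpok-RKF+ CD4+CD8+, 1340 to 1674 in WT CD4 SP and 1174 to 1385 in Thpok-RKF- CD8 SP. The mitosis sum divided by the S phase sum was 0.606 to 0.644 in Thpok-RKF- CD4+CD8+, above the 0.481 to 0.521 of WT CD8 SP. It was 0.296 to 0.358 in Thpok-RKF+ CD4+CD8+, 0.273 to 0.351 in WT CD4 SP and 0.211 to 0.290 in Thpok-RKF- CD8 SP. So the ratio was highest in every library of Thpok-RKF- CD4+CD8+, which did not overlap with any other group. In Thpok-RKF- CD8 SP the ratio rests largely on Kif23 and Racgap1, since the mean mitosis sum was 310 CPM with them and 121 without. In WT CD4 SP these means were 490 and 431 CPM. The ratio was not taken without Kif23 and Racgap1. Of the 26 S phase genes, 24 were lower in WT CD4 SP than in WT CD8 SP (median log2 fold change -1.52), where 10.3% of all genes were. Among them was Mcm6, of the replicative helicase, at -1.65 (SE 0.14, edgeR adjusted p = 1.32e-06). In Thpok-RKF- CD4+CD8+ cells 23 were lower than in WT CD8 SP (median -1.38), where 7.04% of all genes were. In the same cells 7 were higher than in Thpok-RKF- CD8 SP (median 0.52), where 1.72% of all genes were. Among these 7 was Rrm2, a subunit of ribonucleotide reductase, at 2.78 (SE 0.28, adjusted p = 6.14e-05). Between Thpok-RKF+ and Thpok-RKF- CD4+CD8+ cells 0 were called by edgeR, and the median was -0.02. Of all genes 0.375% were called lower there and 0.586% higher. An unadjusted p below 0.05 was found for 5 of the 26, and the share of all genes below it is not given here.

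**Figure D4:**
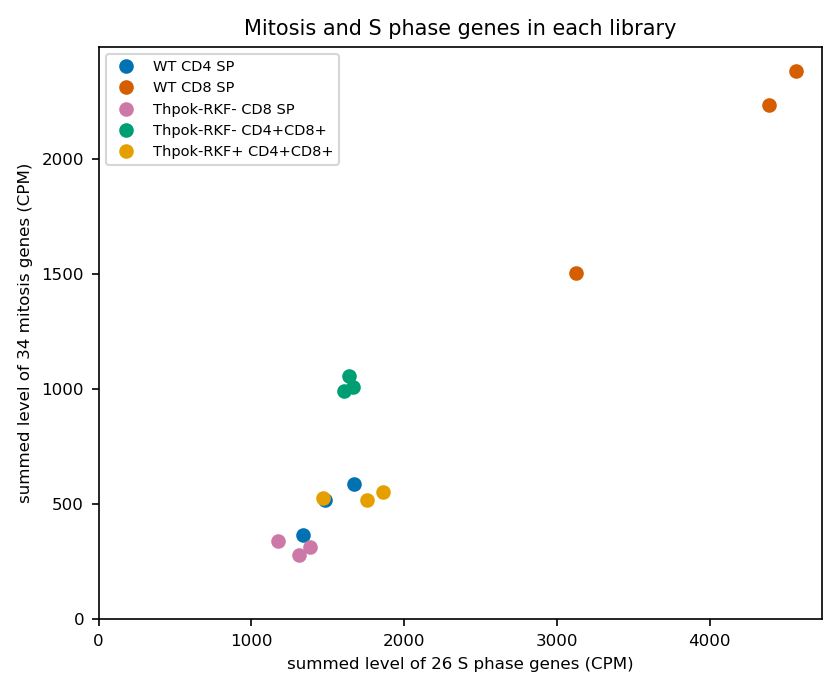
Each point is 1 of 15 libraries, placed by the summed level of 26 S phase genes (horizontal axis, CPM) and of the 34 mitosis genes (vertical axis, CPM), both from 0. The Thpok-RKF- CD4+CD8+ libraries lie at 992 to 1055 CPM of mitosis genes, above the WT CD4 SP and Thpok-RKF+ libraries of like S phase sums.

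A further 55 genes of mitosis outside the list were followed in the same way. In WT CD4 SP 43 of them were lower than in WT CD8 SP and 2 higher, where 10.3% and 7.72% of all genes were. Among those higher was Smc4, a condensin subunit, at 0.88 (SE 0.09, edgeR adjusted p = 1.22e-05). In Thpok-RKF- CD8 SP 49 were lower and 3 higher than in WT CD8 SP, where 10.6% and 7.77% of all genes were. In Thpok-RKF- CD4+CD8+ cells 36 were higher and 1 lower than in Thpok-RKF- CD8 SP, where 1.72% and 0.719% of all genes were. Tacc3, a spindle protein, was at 1.47 there (SE 0.15, adjusted p = 7.6e-05) and Hmmr, a spindle-associated protein, at 3.43 (SE 0.37, adjusted p = 0.000109). Between the 2 CD4+CD8+ groups 0 of the 55 were called by edgeR, where 0.375% of all genes were called lower and 0.586% higher. Of the 55, 16 had an unadjusted p below 0.05 and 45 had the lower mean with Thpok-RKF. The shares of all genes for these counts are not given here, so the counts are a description only. Foxm1, an activator of mitotic promoters, lay at 29.2, 30.9 and 33.4 CPM in WT CD8 SP, at 21.0, 20.7 and 19.2 in Thpok-RKF- CD4+CD8+, at 14.2, 9.80 and 8.45 in Thpok-RKF+ CD4+CD8+, at 2.35, 7.24 and 9.28 in WT CD4 SP and at 5.30, 5.57 and 6.71 in Thpok-RKF- CD8 SP. Foxm1 was higher in Thpok-RKF- CD4+CD8+ than in Thpok-RKF- CD8 SP by 1.79 (SE 0.35, adjusted p = 0.0118), a call lost without replicate 1 or 2 of the latter group. Mybl2, the B-MYB subunit that joins the same promoters, was at 1.19 there (SE 0.38, adjusted p = 0.163), and was lower in Thpok-RKF- CD8 SP than in WT CD8 SP (fell by 3.07, SE 0.41, adjusted p = 8.39e-05).

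Genes that hold cells out of the cycle were called in both directions. Of 21 genes of CDK inhibitors, quiescence and the DREAM complex, 5 were higher and 3 lower in WT CD4 SP than in WT CD8 SP, where 7.72% of all genes were higher and 10.3% lower, and their median was 0.25. Btg2, an antiproliferative gene, lay at 189, 191 and 203 CPM in WT CD8 SP and at 557 to 616 in Thpok-RKF- CD8 SP, and was higher in the latter by 1.57 (SE 0.13, edgeR adjusted p = 1.39e-06). Klf2, a factor of quiescent and emigrating T cells, was lower there (fell by 1.34, SE 0.12, adjusted p = 1.82e-06), and was the 1 gene of the 21 that differed between the 2 Thpok-RKF- groups, where it was higher in CD4+CD8+ cells by 0.94 (SE 0.12, adjusted p = 0.000347). Cdkn1b, the inhibitor p27, was higher in Thpok-RKF- CD8 SP than in WT CD8 SP by 0.86 (SE 0.24, adjusted p = 0.0233), a call lost without WT CD8 SP replicate 2 or 3 or without Thpok-RKF- CD8 SP replicate 1 or 2. It lay at -0.04 (SE 0.24, adjusted p = 0.986) between the 2 Thpok-RKF- groups. For the anaphase-promoting complex, 15 genes of its subunits and the activator Fzr1 were followed. Between WT groups 0 of them were called, where 10.3% of all genes were lower and 7.72% higher. An unadjusted p below 0.05 was found for 3, and the share of all genes below it is not given here. Cdc23 was the 1 gene called higher in Thpok-RKF- CD8 SP than in WT CD8 SP, where 7.77% of all genes were. It was higher by 0.73 (SE 0.15, edgeR adjusted p = 0.00339).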

How the data were processed

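RNA for the 15 libraries was isolated on RNeasy Plus Micro columns, amplified with SMARTer chemistry for low input and read as 101 bp pairs, per the labels' protocols. Per the submitters' processing notes the build was mm39 and the tools included HTSeq, STAR, Trimmomatic, DESeq2 and bcl2fastq 2.17, with no roles stated. The strand setting and annotation were not stated there or in the labels. The authors deposited raw counts per gene, and per-million values that equal CPM, the counts divided by each library's gene total (100% matched within 0.01). The tables held 3 further per-library columns that match no label and were not used. The 5 summary lines that name no gene held 15.9% to 21.0% of reads and stayed out of library sizes and tests.

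Counts were tested with edgeR 4.0.16 in R 4.3.3 (quasi-likelihood F test, TMM, all 15 libraries in 1 model of group means, expression filter with minimum count 10 and minimum total 15), with Benjamini-Hochberg adjustment over 16550 genes and a threshold of 0.05. SE was taken as log2 fold change over the root of F. The scripts were tested on simulated data. Alternatives tried were DESeq2 1.42.0, size factors by relative log expression, omission of the low-count filter, only the compared groups, the replicate number as a block, limma-trend 3.58.1 on log2 of the deposited CPM plus a pseudocount of 1, leaving out the 5 libraries numbered 1, and leaving out each library in turn.

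The members, the other gene lists, tests and alternatives were chosen with earlier results of these data known. Fold changes are named for up to 8 members per comparison with the smallest adjusted p and always for Mki67 and Top2a; from other lists, for up to 4 called genes, and for Foxm1, Mybl2 and Cdkn1b. Kif23, Racgap1, Ndc80 and Mad2l1, where named outside this rule, were chosen after their values were seen. Promoter windows were joined by symbol alone, since their build is GRCm38.p6. Pairs of replicates were compared by chi-square on counts, and no pair agreed within sampling noise.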

Additional observations from a re-analysis of the deposited data

How the results depend on the processing

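Of the 10 counts of called members, 7 stayed within 1.5 times under each alternative run, and single libraries, the filter or the test moved the other 3. For Thpok-RKF+ against Thpok-RKF- CD4+CD8+ (6 members) the count was 17 without the low-count filter, 16 with DESeq2, 11 with limma-trend, 11 without the libraries numbered 1, and 0 to 11 with 1 library left out. For Thpok-RKF- CD4+CD8+ against WT CD4 SP (15) it was 23 without the filter, 8 without the libraries numbered 1, and 5 to 13 with 1 library left out. For Thpok-RKF- CD4+CD8+ against WT CD8 SP (19) it was 6 to 22 with 1 library left out. The cause was not tested, other than that leaving libraries out lowers their number.

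The replicate numbers were not taken to pair the libraries, since the correlation of deviations from group means was above 0.1 for 8, 3 and 6 of 10 pairs numbered 1, 2 and 3 and not for every pair. It was above 0.1 for 10 of 60 pairs of different numbers, with a median of -0.06 against 0.21, 0.05 and 0.11, and 9 of 15 libraries correlated best with their own number. With the replicate number as a block the counts were 33 (between the WT groups), 34 and 29 (Thpok-RKF- CD8 SP against the CD8 and CD4 WT cells), 33 (Thpok-RKF- CD4+CD8+ against Thpok-RKF- CD8 SP), 6 (Thpok-RKF+ against Thpok-RKF- CD4+CD8+, with Tpx2 in and Mki67 out), 16 and 18 (Thpok-RKF- CD4+CD8+ against the CD4 and CD8 WT cells), and 2, 33 and 28 (Thpok-RKF+ CD4+CD8+ against the CD4 WT, CD8 WT and Thpok-RKF- CD8 SP cells).

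Among the genes named in each comparison, signs changed in 22 values of 6 genes, none of them called. Over all 34 members more signs changed. For Thpok-RKF+ CD4+CD8+ against WT CD4 SP, 24 of the 34 kept their sign without WT CD4 SP replicate 1. Without the libraries numbered 1, 25 kept it. The ranges that follow are those of the named genes. With 1 library left out, Foxm1 ranged from -0.51 to 0.25 (Thpok-RKF- CD8 SP against WT CD4 SP, sign changes 0.0042 and 0.25) and was 0.10 with limma-trend. Cdkn1b ranged from -0.19 to 0.046 between the Thpok-RKF- groups (sign changes 0.0048, 0.016 and 0.046) and from -0.089 to 0.33 for Thpok-RKF+ against WT CD4 SP. Mad2l1 ranged from -0.13 to 0.039 between the CD4+CD8+ groups, from -0.26 to 0.14 for Thpok-RKF- CD4+CD8+ against WT CD4 SP (0.0055 with limma-trend), and from -0.32 to 0.075 for Thpok-RKF+ against it. Mybl2, Thpok-RKF- CD4+CD8+ against WT CD4 SP, ranged from -0.41 to 0.23 and was 0.0084 without the filter and 0.0097 with the compared groups alone. Mki67, Thpok-RKF+ CD4+CD8+ against WT CD4 SP, ranged from -0.32 to 0.42 and was -0.48 without the libraries numbered 1. Racgap1, Thpok-RKF+ CD4+CD8+ against Thpok-RKF- CD8 SP, ranged from -0.039 to 0.27. Of the 89 named calls of members, 73 held with each library left out in turn.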
